A study of Mus musculus with 12 samples.

Results

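The cytosolic ribosomal proteins are the protein subunits of the ribosomes that translate nuclear-encoded mRNAs. They were chosen by gene symbol, as the Rpl, Rplp, Rps and Rpsa symbols of single subunit genes with at least 50 counts over all libraries. The rule matched 76 of the 35976 symbols in the files, and all 76 passed the count minimum, the lowest with 1737 counts in total. Of these members, 30 belong to the small subunit, 43 to the large subunit and 3 (Rplp0, Rplp1 and Rplp2) to the stalk of the large subunit. The symbol rule leaves out a few genes that also encode cytosolic ribosomal proteins, such as Rps3a1 and Fau.

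Transcripts were counted with 3′ tag sequencing in mouse haematopoietic stem cells sorted as lineage-negative cells carrying c-Kit and Sca-1, from mice lacking Cd38 (KO) and from wild-type mice (WT). Cd38 encodes an enzyme that consumes NAD. The 12 libraries formed 6 groups of 2. Young stimulated KO and young stimulated WT cells came from mice aged 2 months and were kept with cytokines outside the body for 24 hours. Old fresh KO and old fresh WT cells came from mice aged 24 months, and young fresh KO and young fresh WT cells from mice aged 2 months, and both were sequenced as isolated. The study asked what CD38 does to the fate of these cells in the resting state, in culture with cytokines and with age. The labels do not name the cytokines or the deleted part of Cd38, and do not say whether the libraries of a group came from separate mice, so p-values measure only the spread between these samples.

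Each ribosome carries a set of proteins assembled with ribosomal RNA in the nucleolus, and cells make these proteins in near equal amounts. Many of their mRNAs begin with a run of pyrimidines, through which mTOR signalling and Larp1 control their translation. In blood-forming tissue, inherited loss of 1 copy of certain members causes marrow failure in humans, with too few red cells, and blood stem cells are known for a low rate of protein synthesis.

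Total counts per library ran from 1600155 to 5164720, and every old library (3796591 to 5164720) and every stimulated one (2692245 to 3249721) was deeper than every young fresh one (1600155 to 1963635), so neither age nor stimulation can be told apart from depth. Stimulated libraries had counts for 13163 to 13450 genes, old ones for 9548 to 10231 and young fresh ones for 9116 to 9993. Cd38 itself had 4.00 and 2.60 CPM (a count scaled to 1000000 counts per library) in young stimulated KO, against 1.07 and 9.28 CPM in young stimulated WT. In old cells it had 12.1 and 18.6 CPM in KO, against 67.2 and 36.3 CPM in WT, and in young fresh cells 62.6 and 31.7 CPM in KO, against 17.5 and 24.5 CPM in WT. A 3′ tag can lie outside a deletion, so these values are no check of the genotype. Young fresh WT replicate 1 held 0 counts of Xist, which marks female cells, while the other libraries held 185 to 806 CPM, so the sexes were mixed in that group. All 6 markers of the sorted cells (Kit, Ly6a, Cd34, Procr, Mecom and Hlf) were counted in every library, and summed to 1177 to 2075 CPM.

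The 76 members together took the smallest part of the counts in stimulated cells and the largest in old WT cells. Their summed share was 14.2% and 14.7% in young stimulated KO and 14.4% and 14.6% in young stimulated WT. It was 17.8% and 16.9% in old fresh KO and 19.6% and 22.4% in old fresh WT, and 16.5% and 15.9% in young fresh KO and 17.9% and 17.0% in young fresh WT. The stimulated libraries lay below all fresh ones and were close to each other. KO libraries lay below WT libraries of the same age in both fresh sets, while the stimulated genotypes overlapped. No test is given for this sum, since the members were chosen with earlier results known. In bulk samples a different mixture of cells and a different amount of RNA per cell cannot be told apart.

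The fall of the share in stimulated cells lay mostly in the large subunit. Its 43 members held 7.03% and 7.29% of counts in stimulated KO and 7.15% and 7.18% in stimulated WT, against 8.86% and 8.66% in young fresh KO and 10.1% and 9.38% in young fresh WT. The 30 small subunit members held 6.57% and 6.78% in stimulated KO and 6.55% and 6.90% in stimulated WT, against 6.81% and 6.52% in young fresh KO and 7.11% and 6.93% in young fresh WT. The small subunit share was slightly lower in stimulated than in young fresh WT, and overlapped in KO. Small subunit counts were thus, without the stalk, 0.916 to 0.961 times large subunit counts in the 4 stimulated libraries and 0.651 to 0.769 times in the 8 fresh ones, with no overlap. The 3 stalk members also fell, with 0.545% to 0.670% of counts in stimulated and 0.708% to 0.789% in young fresh libraries. Mitochondrial ribosomal proteins, which build the separate ribosome of mitochondria, took 0.480% to 0.537% of counts in stimulated and 0.380% to 0.520% in fresh libraries.

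**Figure D1:**
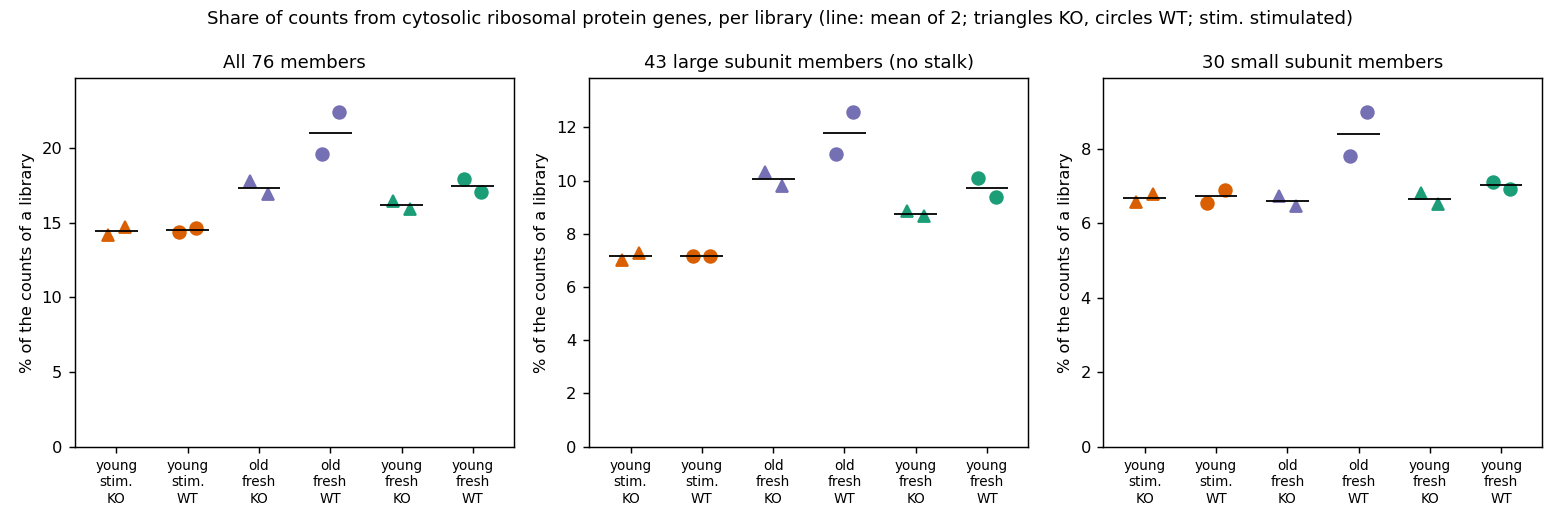
Percent of each library's counts from all 76 members (left), from the 43 large subunit members without the stalk (middle) and from the 30 small subunit members (right), by group. Points are libraries (triangles KO, circles WT) and lines are means of 2. The stimulated libraries are lowest for all members and for the large subunit, and old fresh WT is highest in all 3 panels.

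Single members differed widely in level. A 3′ tag count does not grow with transcript length, so CPM of different genes were compared as tags, with no division by length. Rpl23, a large subunit protein that also binds the p53 regulator Mdm2, was highest with a mean of 9329 CPM over 12 libraries, and ranged from 5067 to 17630 CPM. It was followed by Rps24 with a mean of 7156 CPM, Rpl36a with 6132 CPM, Rps20 with 5515 CPM and Rpl4 with 5226 CPM. The lowest means were those of Rpl29 with 44.5 CPM, Rpl7a with 175 CPM, Rpl15 with 194 CPM, Rpl10 with 229 CPM and Rpl19 with 253 CPM. The 10 highest members held 32.2% to 40.3% of the members' counts in each library.

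These levels need care because of near-identical gene copies, mostly pseudogenes. The counting of reads that match several places was not given in the sources used here. Within the last 200 bases of its transcript, Rpl29 shared stretches of 50 bases with 36 other genes, 34 of them pseudogenes. Rpl10 shared such stretches with 12, Rpl21 with 53, Rps7 with 11 and Rpl36a with 6, while Rpl4, Rpl11 and Rps16 shared them with 0. Rpl29 had 1 count (0.520 CPM) in young fresh KO replicate 4 and 89.1 CPM in replicate 3 of that group, so its fold changes carry no weight here. Other members varied between replicates to differing degrees. Rpl10 had 200 and 641 counts in the 2 old fresh KO libraries, and Rps6 had 522 and 1080 counts in the young fresh KO ones. The members' median absolute log2 difference between the 2 libraries of a group was 0.0767 to 0.333, against 0.270 to 1.05 across 10157 genes. The Pearson correlation of log2 levels between these libraries, across the 76 genes and as a description, was 0.917 to 0.995, against 0.645 to 0.961 across 10157 genes. This correlation also reflects the wide range of levels among genes.

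The start regions of 9 members are printed because the results turn on these genes. Rpl28, Rpl35, Rpl41, Rplp2 and Rps16 were higher both after stimulation and in old cells, and Rpl11, Rpl13a, Rps7 and Rpl4 were lower after stimulation in every fit, each genotype alone included. By contrast, none of the first 5 was called after stimulation in KO or in WT cells alone. Sequences are from RefSeq, build GRCm38.p6, 5′ to 3′ on the gene's strand, from 75 bases before to 25 bases from the annotated start. RefSeq windows were matched by symbol for 56 of the 76 members. Capitals mark matches to the pyrimidine run CTCTTTC on the gene's strand, and on either strand to the ETS core CCGGAAG, the Sp1 motif GGGCGG, the E-box CACGTG and the YY1 motif AAGATGGC.
Rpl28 (chr7:4792890-4792989, plus strand): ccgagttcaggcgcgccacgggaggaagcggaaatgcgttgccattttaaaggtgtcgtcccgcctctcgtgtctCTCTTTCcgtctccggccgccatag
Rpl35 (chr2:39005107-39005206, minus strand): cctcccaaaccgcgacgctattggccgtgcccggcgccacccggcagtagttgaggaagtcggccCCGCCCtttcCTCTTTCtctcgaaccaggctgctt
Rpl41 (chr10:128549144-128549243, minus strand): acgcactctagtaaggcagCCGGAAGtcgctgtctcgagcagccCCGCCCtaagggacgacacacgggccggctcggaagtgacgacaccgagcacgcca
Rplp2 (chr7:141447576-141447675, plus strand): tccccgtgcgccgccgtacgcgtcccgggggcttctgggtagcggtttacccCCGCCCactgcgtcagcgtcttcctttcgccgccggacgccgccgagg
Rps16 (chr7:28350614-28350713, plus strand): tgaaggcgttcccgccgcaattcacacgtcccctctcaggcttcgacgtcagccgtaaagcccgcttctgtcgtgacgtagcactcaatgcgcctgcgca
Rpl11 (chr4:136053369-136053468, minus strand): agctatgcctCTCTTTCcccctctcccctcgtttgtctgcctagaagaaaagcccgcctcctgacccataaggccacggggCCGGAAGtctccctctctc
Rpl13a (chr7:45128721-45128820, minus strand): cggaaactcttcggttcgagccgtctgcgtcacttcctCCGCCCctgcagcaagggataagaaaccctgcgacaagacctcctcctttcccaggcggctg
Rps7 (chr12:28635929-28636028, minus strand): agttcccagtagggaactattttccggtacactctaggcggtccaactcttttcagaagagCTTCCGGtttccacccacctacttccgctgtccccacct
Rpl4 (chr9:64173312-64173411, plus strand): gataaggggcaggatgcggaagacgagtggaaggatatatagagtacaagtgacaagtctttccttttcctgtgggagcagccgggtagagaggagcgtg
CTCTTTC lay within the full 300-base RefSeq window of 13 of the 56 members (23.2%) and of 1244 of 27025 genes (4.60%). CCGGAAG, bound by factors such as GABP, lay in 41.1% of members and 9.93% of genes. GGGCGG lay in 60.7% and 38.2%, AAGATGGC in 8.93% and 3.19%, and CACGTG (bound by Myc) in 10.7% and 8.09%. CCGGAAG and AAGATGGC can overlap by 3 letters, and a match is a description of letters in a window. A match can lie before the annotated start, as CTCTTTC does in the printed Rpl11 window, so it need not be part of the mRNA. Members with CTCTTTC were 2 of the 5 with a window among those higher after stimulation and 4 of the 15 lower, and 5 of the 18 higher in old cells and 0 of the 4 lower.

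More members were lower than higher in young cells after stimulation. Stimulation here means cytokines and culture outside the body together, set against cells sequenced as isolated. No group was cultured without cytokines, so the part of either alone was not tested. Of 76 members, 6 rose and 19 fell at an adjusted p under 0.05 (edgeR), against 2.27% of all 10786 genes tested that rose and 1.84% that fell (4.12% in either direction). The members varied less between replicates than all genes did at the median, so members are easier to call and these shares are not like for like. The median log2 change of the members was -0.19, and that of all genes tested was 0.21. Large subunit members accounted for 16 of the falls and 3 of the rises among 43, small subunit members for 2 falls and 2 rises among 30, and the stalk for 1 fall (Rplp1) and 1 rise (Rplp2) among 3. Stimulated libraries vary less between replicates than fresh ones, and leaving out any one of them lowered the count of calls, to 6 or 7 when KO replicate 3 or 4 was dropped (0.443% and 0.522% of all genes called) and to 10 when WT replicate 1 or 2 was (0.616% and 0.653%). Calls over all genes thus fell in the same fits. Rps7, Rpl11, Rpl13a, Rpl23a, Rpl4 and Rpl23 were called with any library left out and under every other scaling, filter and tool tried, though Rpl23a and Rpl23 were not called in KO cells alone. The other 19 calls were lost in at least one of these fits.

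Rps7, a small subunit protein whose loss causes marrow failure in humans, fell most. It had 1395 and 1343 CPM in stimulated KO and 1302 and 1090 CPM in stimulated WT, against 4541 and 4609 CPM in young fresh KO and 4192 and 4385 CPM in young fresh WT. All 4 stimulated libraries were far below all 4 fresh ones, and the log2 change was -1.93 ± 0.09 (approximate SE, adjusted p = 0.000135). Rpl11, which joins Rpl5 in a particle that binds Mdm2, had 1414 and 1408 CPM in stimulated KO and 1618 and 1454 CPM in stimulated WT, against 3333 and 3223 CPM in young fresh KO and 3174 and 3200 CPM in young fresh WT. The groups did not overlap, and the change was -1.27 ± 0.08 (adjusted p = 0.000507). Its partner Rpl5 also fell, by 0.50 on the log2 scale (adjusted p = 0.0352).

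Rpl4, which lines the tunnel for the nascent chain, had 3934 and 4127 CPM in stimulated KO and 3858 and 3205 CPM in stimulated WT, against 8356 and 9488 CPM in young fresh KO and 5368 and 7312 CPM in young fresh WT. Every young fresh library was above every stimulated one, more so in KO. Rpl13a, known outside the ribosome for silencing inflammatory mRNAs, had 2997 and 3582 CPM in stimulated KO and 3122 and 2971 CPM in stimulated WT, against 6575 and 5467 CPM in young fresh KO and 6985 and 7076 CPM in young fresh WT. The log2 changes were -1.13 ± 0.12 for Rpl4 (adjusted p = 0.0029) and -1.18 ± 0.10 for Rpl13a (adjusted p = 0.00105). Rpl23a, at the tunnel exit where nascent chains meet the signal recognition particle, fell by 0.96, and Rpl23 fell by 0.78. Rpl21 (-1.29), Rpl7 (-1.04), Rps19 (-0.89), the gene most often mutated in inherited marrow failure in humans, and Rpl37 (-0.88) fell too. The remaining falls, by 0.47 to 0.67 on the log2 scale, were those of Rpl12, Rplp1, Rpl24, Rpl39, Rpl22, Rpl9, Rpl26 and Rpl36a, beside Rpl5.

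The rises were led by Rpl41, which encodes the smallest protein of the set, with a coding length of 75 bases. Rpl41 had 370 and 413 CPM in stimulated KO and 322 and 382 CPM in stimulated WT, against 158 and 64.5 CPM in young fresh KO and 162 and 167 CPM in young fresh WT. Each stimulated library was above each young fresh one, and the log2 change was 1.31 ± 0.26 (adjusted p = 0.0346). Rpl28, of the large subunit, had 582 and 791 CPM in stimulated KO and 400 and 545 CPM in stimulated WT, against 326 and 197 CPM in young fresh KO and 219 and 230 CPM in young fresh WT. Its change was 1.09 ± 0.21 (adjusted p = 0.0289), again without overlap. Rplp2, a stalk protein that helps to recruit elongation factors, rose by 0.94, Rps16 by 0.73, Rpl35 by 0.71 and Rps14 by 0.68. All 6 rises were lost without some libraries, among them stimulated KO replicate 3, stimulated KO replicate 4 and stimulated WT replicate 1 in each case.

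Members of fixed interest that did not pass were Rps6, the target of S6 kinase downstream of mTOR, with a log2 change of -0.50 ± 0.23 (adjusted p = 0.222), Rpsa with 0.02 ± 0.13, Rps27a, made as a fusion with ubiquitin, with -0.32 ± 0.12, and the stalk protein Rplp0 with -0.48 ± 0.11 (adjusted p = 0.0563). Rps6 had 316 and 332 CPM in stimulated KO and 271 and 256 CPM in stimulated WT, against 266 and 562 CPM in young fresh KO and 310 and 370 CPM in young fresh WT. These values overlap. The 51 members not called after stimulation ranged from -0.66 (Rpl15) to 0.60 (Rps15). Rpl22, needed in mice for T cell development, fell by 0.60 (adjusted p = 0.0159).

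**Figure D2:**
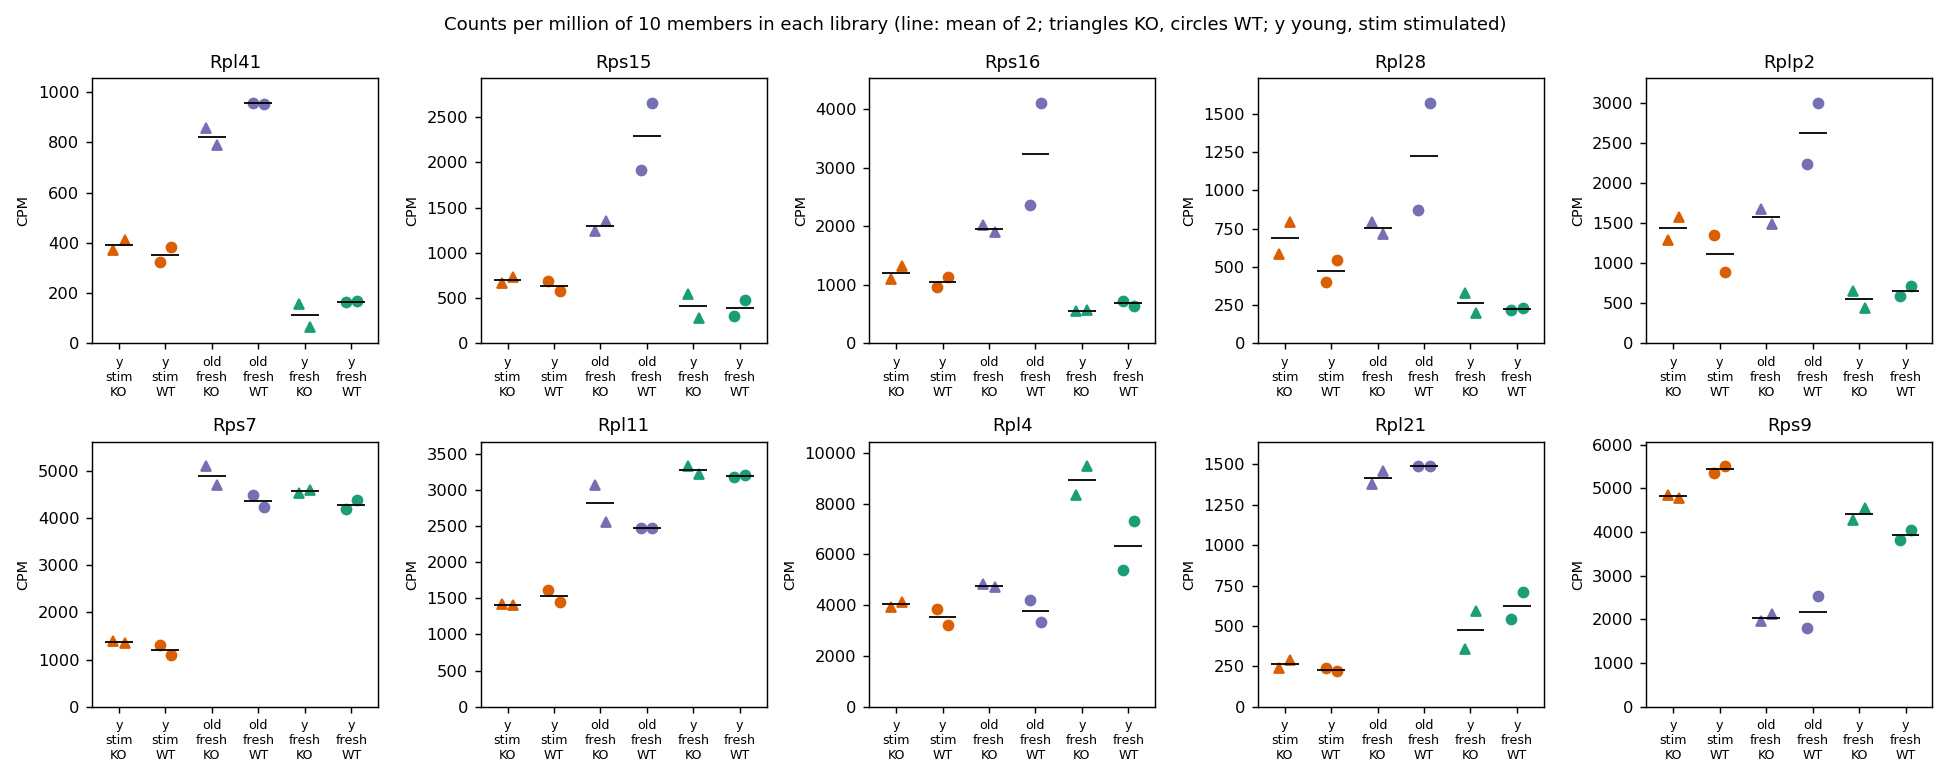
CPM of 10 members in every library, by group. Points are libraries (triangles KO, circles WT) and lines are means of 2. Rpl41, Rps15, Rps16, Rpl28 and Rplp2 are highest in old fresh cells, Rps7, Rpl11 and Rpl4 are lower in stimulated than in young fresh cells, Rps9 is lowest in old fresh cells, and Rpl21 is lowest in stimulated and highest in old fresh cells.

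Age went the other way, with more members higher than lower in old fresh cells. Of 76 members, 27 rose and 6 fell (edgeR), against 1.76% of 10680 genes tested that rose and 0.964% that fell (2.72% in either direction). In the fresh groups the median log2 difference between replicates was 0.185 to 0.333 for members and 0.854 to 1.05 for all genes. Members are thus easier to call than most genes, and these shares are not like for like. The members' median log2 change was 0.31, against 0.05 for all genes tested. The rises were 17 of 43 large subunit, 9 of 30 small subunit and 1 of 3 stalk members, and the falls were 2 large and 4 small subunit members. With each library left out in turn, 30 to 37 members were called (2.46% to 4.61% of all genes), and 28 of the 33 calls held in each such fit. Among the 5 others were Rpl12, lost without old KO replicate 3, Rpl13, lost without old KO replicate 4, Rps3, lost without old WT replicate 1 or old KO replicate 3, and Rpl10a. Rpl10a was lost without young fresh WT replicate 2, young fresh KO replicate 4, old WT replicate 2 or old KO replicate 3.

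Rpl41 again rose most. It had 857 and 787 CPM in old KO and 959 and 952 CPM in old WT, against 158 and 64.5 CPM in young fresh KO and 162 and 167 CPM in young fresh WT. Old libraries were all several times above young ones, and the log2 change was 2.84 ± 0.26 (adjusted p = 2.88e-06). Rps15, a small subunit protein whose tail reaches the decoding site, had 1240 and 1347 CPM in old KO and 1917 and 2661 CPM in old WT, against 545 and 282 CPM in young fresh KO and 302 and 475 CPM in young fresh WT. Its change was 2.23 ± 0.23 (adjusted p = 6.04e-06), with no overlap. Rps16, whose tail contacts the transfer RNA at the peptidyl site, had 2024 and 1900 CPM in old KO and 2366 and 4118 CPM in old WT, against 547 and 568 CPM in young fresh KO and 731 and 633 CPM in young fresh WT. Old WT replicate 2 was the highest of the 8, and the change was 2.16 ± 0.19 (adjusted p = 1.54e-06).

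Rpl28 (2.12), Rplp2 (1.89), Rpl35a (1.59) and Rpl17 (1.55) were also among the 8 largest rises in old cells, on the log2 scale. Rpl35a, a marrow failure gene in humans, had 3855 and 3555 CPM in old KO and 3694 and 5270 CPM in old WT, against 1262 and 1285 CPM in young fresh KO and 1855 and 1570 CPM in young fresh WT. Both old groups stood clear of both young ones. Rpl38, which in mice favours translation of some Hox mRNAs, rose by 1.35, with 2189 and 2222 CPM in old KO and 3279 and 3501 CPM in old WT, against 1020 and 854 CPM in young fresh KO and 1649 and 1283 CPM in young fresh WT. WT was above KO at both ages for Rpl38, a difference taken up with the other genotype values. Rpl21, which shares its transcript end with 52 pseudogenes, rose by 1.54. The other rises ran from 0.59 (Rps21) to 1.44 (Rpl35) and included Rpl30, Rpl36, Rps4x, Rpl31, Rps18, Rps29, Rpl10a, Rps15a, Rpl36a, Rpl39, Rpl23, Rpl23a and Rpl12. The 43 members not called lay between -0.81 (Rps6) and 0.70 (Rpl29).

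The 6 falls included Rps9, Rps14, Rpl4, Rps3 and Rpl13. Rps9, near the entry of the mRNA channel, had 1957 and 2123 CPM in old KO and 1811 and 2543 CPM in old WT, against 4276 and 4540 CPM in young fresh KO and 3808 and 4049 CPM in young fresh WT. The ages did not overlap, and it fell by 0.85 on the log2 scale (adjusted p = 0.00164). Rps14, the member lost with part of a chromosome in a human marrow disease, fell by 0.76 (adjusted p = 0.0166), and limma voom did not call it. Rpl4 fell by 0.70, Rps3, which also takes part in DNA repair, by 0.66 and Rpl13 by 0.63.

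Fixed members that did not pass in the age comparison were Rps6 (-0.81 ± 0.29, adjusted p = 0.188), Rps19 (0.16 ± 0.15), Rpl5 (0.39 ± 0.12, adjusted p = 0.102), Rpl11 (-0.17 ± 0.14), Rpl22 (-0.23 ± 0.14), Rplp0 (0.01 ± 0.16), Rplp1 (-0.30 ± 0.12), Rpsa (-0.40 ± 0.23) and Rps27a (0.07 ± 0.15), as log2 changes. Of 20 members known as marrow failure genes in humans, 6 rose in old cells, among them Rpl35, Rpl35a, Rpl31, Rps29 and Rps15a, and Rps14 fell. Of all 76 members 27 rose and 6 fell there, against 1.76% and 0.964% of all genes. After stimulation 2 of the 20 rose (Rpl35 and Rps14) and 5 fell (Rps7, Rpl11, Rps19, Rpl26 and Rpl5). Of all 76 members 6 rose and 19 fell then, against 2.27% and 1.84% of all genes. These counts thus do not set the 20 apart from the other members.

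**Figure D3:**
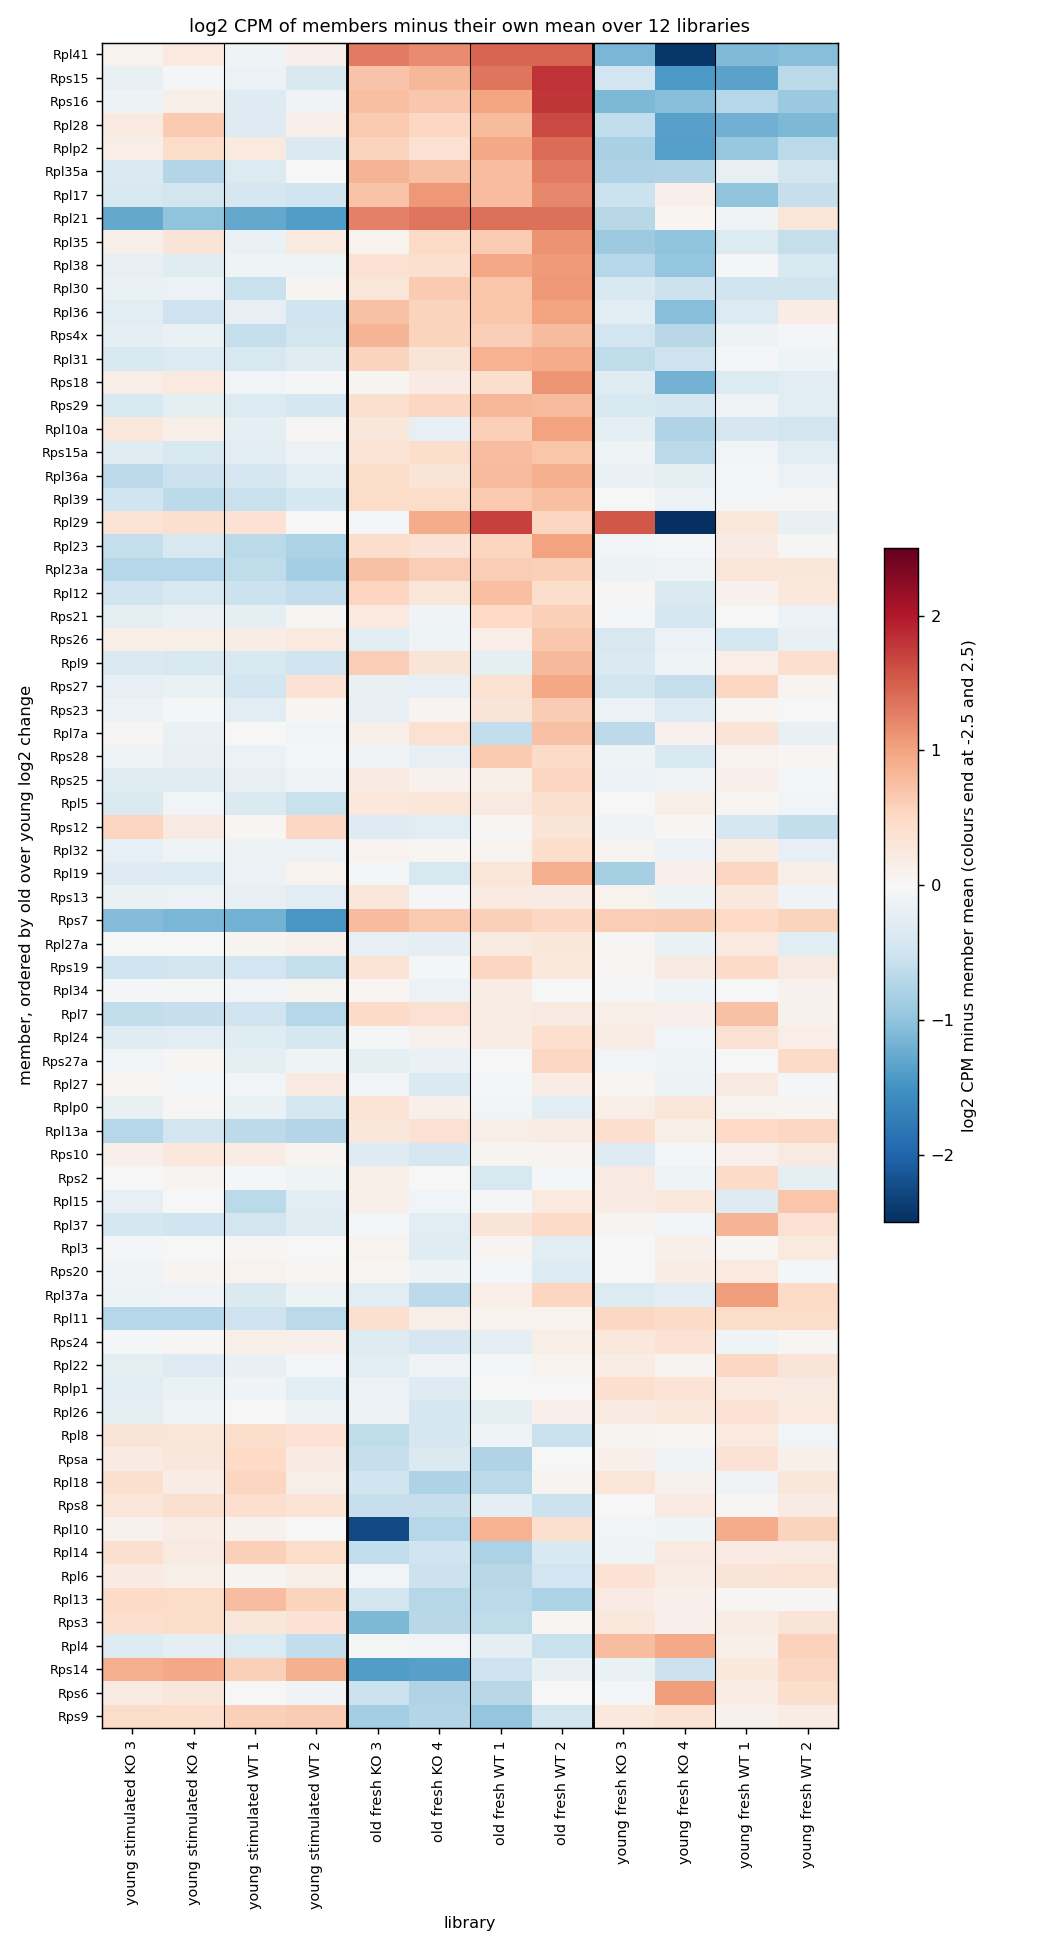
log2 CPM of members (rows; a few are not shown) in each of the 12 libraries (columns), minus the member's mean over the libraries. Rows are ordered by the log2 change of old over young fresh cells, from Rpl41 (2.84) at the top to Rps9 (-0.85) at the bottom. Old libraries are red for the upper rows, and Rps7 and Rpl21 are blue in the stimulated libraries.

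Stimulation and age were set against the same 4 young fresh libraries, so their values are given side by side and not correlated. Rpl28, Rpl35, Rpl41, Rplp2 and Rps16 were higher in both comparisons, and Rpl4 was lower in both. Rpl12, Rpl21, Rpl23, Rpl23a, Rpl36a and Rpl39 were lower after stimulation and higher in old cells. Rpl21 had 238 and 287 CPM in stimulated KO and 238 and 218 CPM in stimulated WT, and 1376 and 1460 CPM in old KO and 1487 and 1491 CPM in old WT, against 356 and 591 CPM in young fresh KO and 541 and 711 CPM in young fresh WT. Young fresh libraries thus lay between the other sets. Rps14 was higher after stimulation and lower in old cells, with 2987 and 3097 CPM in stimulated KO and 2408 and 2934 CPM in stimulated WT, and 606 and 620 CPM in old KO and 1111 and 1387 CPM in old WT, against 1418 and 1100 CPM in young fresh KO and 1892 and 2272 CPM in young fresh WT. Neither comparison called 31 members.

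Markers of several cell types moved with these comparisons. The 7 neutrophil markers (Ly6g, S100a8, S100a9, Elane, Mpo, Camp and Ltf) summed to 1800 to 3083 CPM in the 4 stimulated libraries and 321 to 2815 CPM in the 4 old ones, against 4795 to 9182 CPM in the 4 young fresh ones. S100a8, S100a9 and Camp fell in both, S100a8 with log2 changes of -2.33 after stimulation and -2.08 in old cells, while Mpo (4.09) and Elane (4.41) rose after stimulation. Ly6g, which defines mature neutrophils, was at 0 in all libraries but old WT replicate 1. The 4 mast cell and basophil markers summed to 40.1 to 91.0 CPM in stimulated and 0 to 17.4 CPM in old libraries, against 0 to 14.6 CPM in young fresh ones. Mcpt8, Ms4a2 and Prss34, all at 0 in young fresh cells, rose after stimulation, and neither of the 2 tested in old cells was called. Of the 6 T and NK cell markers 2 were tested. Nkg7 rose after stimulation, with 105 to 244 CPM against 13.7 to 34.6 CPM in young fresh cells, and Klrb1c rose in old cells, with 14.2 to 91.9 CPM against 0 to 0.570 CPM. Cd3e, Cd4 and Cd8a, which define T cells, were at 0 in every library. The 6 B cell markers summed to 18.2 to 64.2 CPM in stimulated and 0.240 to 56.0 CPM in old libraries, against 0.570 to 21.4 CPM in young fresh ones, with 0 calls and Ms4a1 at 0 throughout. Among the 6 markers of the sorted cells, Hlf fell by 1.04 after stimulation and by 0.87 in old cells, and Cd34 fell by 1.42 in old cells. Erythroid, macrophage and dendritic, and stroma and endothelium markers had 0 calls in both comparisons. Over all genes tested, 4.12% were called after stimulation and 2.72% in old cells.

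The part of these cell types in the members' changes was not tested. Without young fresh WT replicate 1, the library with no Xist counts and the highest neutrophil sum, 22 members were called after stimulation (5.61% of all genes) and 33 in old cells (2.99%), against 25 and 33 with it.

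Loss of Cd38 gave no member that passed the test in any state. In young fresh cells edgeR called 0 of 76 members (background 0% of 10680 genes), and 9 members had an unadjusted p under 0.05, against 4.86% of all genes. DESeq2 called 1 (0.798% of all genes) and limma voom 0 (0%). The members' median log2 change was -0.15 with 58 of 76 below 0, against -0.03 for all genes tested, with 5494 of 10680 below 0. All members were read in the same few libraries, so their signs are not separate observations. Rpl37a, a zinc finger protein of the large subunit, had the smallest p, with 1337 and 1421 CPM in young fresh KO, against 3528 and 2394 CPM in young fresh WT. Its log2 change was -1.11 ± 0.24 (adjusted p = 0.396), and it was the member that DESeq2 called. Next came Rpl37 (-0.64), Rps27 (-0.85), Rps14 (-0.73) and Rpl38 (-0.66). Among members above 0, the smallest p-values were those of Rpl4 (0.49), Rps12 (0.48) and Rps24 (0.32).

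In old cells edgeR again called 0 members (background 0%), but 30 of 76 had an unadjusted p under 0.05, against 428 of 10680 genes (4.01%). That count was 11 (5.53% of all genes) without old WT replicate 2 and 20 (4.44%) without old KO replicate 4. limma voom called 0 (0.0173% of all genes) and DESeq2 6 (0.609%). The median was -0.33 with 63 of 76 members below 0, 27 of 30 in the small subunit. Over all genes tested the median was 0, with 5238 of 10680 below 0. Here too the members' signs are not separate observations. Rps14 had 606 and 620 CPM in old KO, against 1111 and 1387 CPM in old WT, a log2 change of -1.07 ± 0.24 (adjusted p = 0.252). Rpl10, which acts in the joining of the subunits, had 42.5 and 124 CPM in old KO, against 372 and 271 CPM in old WT, a change of -1.99 ± 0.46 (adjusted p = 0.273). Both KO libraries were below both WT libraries for each gene, and the KO libraries differed widely from each other for Rpl10. Rps27 (-0.95), Rps28 (-0.76) and Rpl37a (-0.87) followed. DESeq2 called Rpl10, Rps14, Rps27, Rps28, Rpl36a and Rpl37a, all lower in KO. Above 0 the smallest p-values belonged to Rpl4 (0.30), Rplp0 (0.37) and Rpl6 (0.26), none under 0.05. Leaving out old WT replicate 1 gave 7 calls (0.197% of all genes), all lower in KO, and leaving out old WT replicate 2, the library with the highest share, moved the median to -0.24.

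Stimulated KO and WT cells were closest. edgeR on the 4 stimulated libraries called 0 of 76 members (background 1.23% of 10494 genes). At an unadjusted p under 0.05 there were 9 members, against 10.9% of all genes. DESeq2 called 0 (0.986% of all genes) and limma voom, with group weights, called 7 (1.97%). The members' median was 0.02, with 39 above and 37 below 0, and the median of all genes was 0.00. Rpl28 had 582 and 791 CPM in stimulated KO, against 400 and 545 CPM in stimulated WT, a log2 change of 0.51 ± 0.17 (adjusted p = 0.199). Rpl36a (-0.28), Rpl35a (-0.39), Rps4x (0.30) and Rps9 (-0.20) followed. The 7 that limma voom called, Rpl36a, Rps9, Rps24, Rpl13, Rps25, Rpl35a and Rpl14, were all lower in KO by 0.20 to 0.40. Without stimulated WT replicate 1 there were 5 calls (2.66% of all genes), 2 higher and 3 lower in KO.

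**Figure D4:**
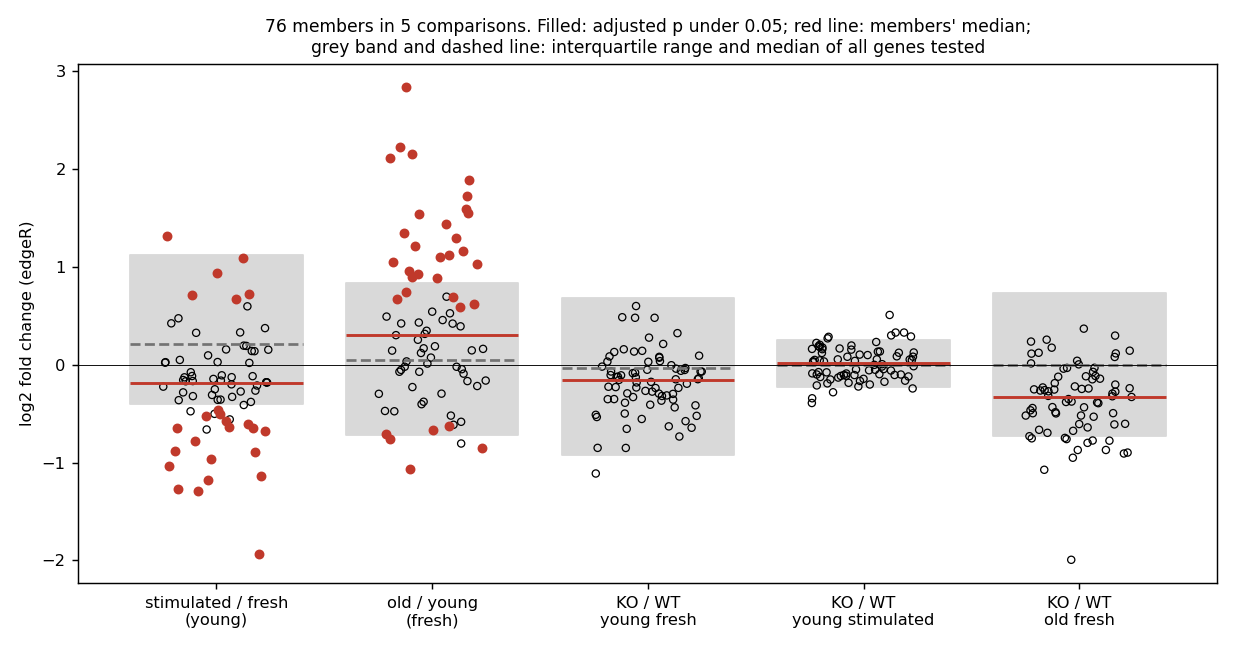
log2 fold changes (edgeR) of the 76 members in 5 comparisons. Filled points passed an adjusted p under 0.05, red lines are the members' medians, and the grey bands and dashed lines are the interquartile range and the median of all genes tested. Stimulation has 25 filled points, age 33 and the 3 KO comparisons 0.

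The difference of the stimulation effect between KO and WT was called for 0 members by edgeR (background 0%) and 0 by limma voom (0%), with 9 members at an unadjusted p under 0.05 in edgeR, against 9.56% of all genes. DESeq2 called 4 (2.54% of all genes), namely Rpl37a, Rps14 and Rps4x, with a larger log2 change in KO, and Rps24, with a smaller one. edgeR's values were 1.21 ± 0.28 for Rpl37a, 0.89 ± 0.24 for Rps14, 0.82 ± 0.23 for Rps4x and -0.50 ± 0.15 for Rps24 (adjusted p = 0.406 each). Between KO and WT, the age effect differed for 0 members by edgeR (background 0%), DESeq2 (0.373%) and limma voom (0%), with 4 members at an unadjusted p under 0.05 in edgeR, against 5.5% of all genes. Rps12 had the smallest p, with 1322 and 1381 CPM in old KO and 1683 and 2067 CPM in old WT, against 1547 and 1687 CPM in young fresh KO and 1225 and 1080 CPM in young fresh WT (adjusted p = 0.902), followed by Rps24 (-0.71) and Rps15 (-0.95). Taken alone within the same fits, stimulated KO cells had 1 rise and 5 falls (0.649% of all genes called in either direction) and stimulated WT cells 0 rises and 13 falls (0.936%). Old KO cells had 16 rises and 3 falls (0.871%), and old WT cells 18 rises and 0 falls (0.805%).

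Genes that work with the ribosome gave a mixed picture. Among 19 tested partners whose mRNAs are controlled like those of the members, 0 rose and 5 fell after stimulation, and 4 rose and 1 fell in old cells. Over all genes tested, 2.27% rose and 1.84% fell after stimulation, and 1.76% rose and 0.964% fell in old cells. Eef1a1, the factor that brings charged transfer RNA, fell by 1.36 after stimulation, with 4963 and 5297 CPM in stimulated KO and 4745 and 4128 CPM in stimulated WT, against 12610 and 10615 CPM in young fresh KO and 9983 and 11240 CPM in young fresh WT. All 4 stimulated libraries were far below the lowest fresh one. Rps3a1, a small subunit protein outside the symbol rule, fell by 1.16, Naca, of the nascent chain complex, by 0.88, and Eif3e, an initiation factor subunit, by 0.66. In old cells Tpt1 rose by 1.06 and the initiation factor Eif4b by 1.24, while Rack1, a scaffold on the small subunit, fell by 0.84.

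Among 37 ribosome assembly factors, 2 rose after stimulation (Nop10, 1.32, and Dkc1, 1.07, both of the particle that modifies ribosomal RNA) and 2 fell (Nop58, -0.84, and Nop14, -1.20), and 0 were called in old cells, where 4 had an unadjusted p under 0.05, against 13.2% of all genes. The list's median was 0.19 after stimulation and 0.09 in old cells, against 0.21 and 0.05 for all genes tested. For this list and the next ones, the share called over all genes tested was 4.12% after stimulation and 2.72% in old cells. Of the mTOR and S6 kinase genes, 1 of 16 was called after stimulation (Pdcd4, an inhibitor of translation, lower by 0.70) and 0 of 15 in old cells. Of the p53 response genes, 1 of 13 was called after stimulation (Ccng1, lower by 1.26) and 0 of 12 in old cells. Mitochondrial ribosomal proteins had 1 call among 77 after stimulation (Mrps22, -1.11) and 0 among 76 in old cells, with medians of 0.23 and 0.00. The paralogue Rpl22l1 fell by 0.76 after stimulation, like Rpl22, and Rps27l rose by 1.55 in old cells, where Rps27 had 0.49 and did not pass.

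Across the 76 genes, the log2 change in old cells and the coding length had a Pearson r of -0.45 and a Spearman rho of -0.46, given as a description of values that share the same 8 libraries. Members higher in old cells had a median transcript length of 570 bases (GENCODE M21), against 770.5 bases for the 6 lower ones and 799 bases for the 43 not called. For stimulation the same correlation was -0.24 (rho -0.17). The GC content of the last 200 bases had an r of 0.37 with the stimulation change, and the 6 members that rose had a higher median GC content there than the 19 that fell, and an r of 0.19 with the age change. The share of 50-base stretches at the transcript end found in other genes had an r of 0.28 with the age change, and 22 of the 27 members higher in old cells, 3 of the 6 lower and 31 of the 43 not called had at least 1 such copy. The part of read mapping in these differences was not tested.

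**Figure D5:**
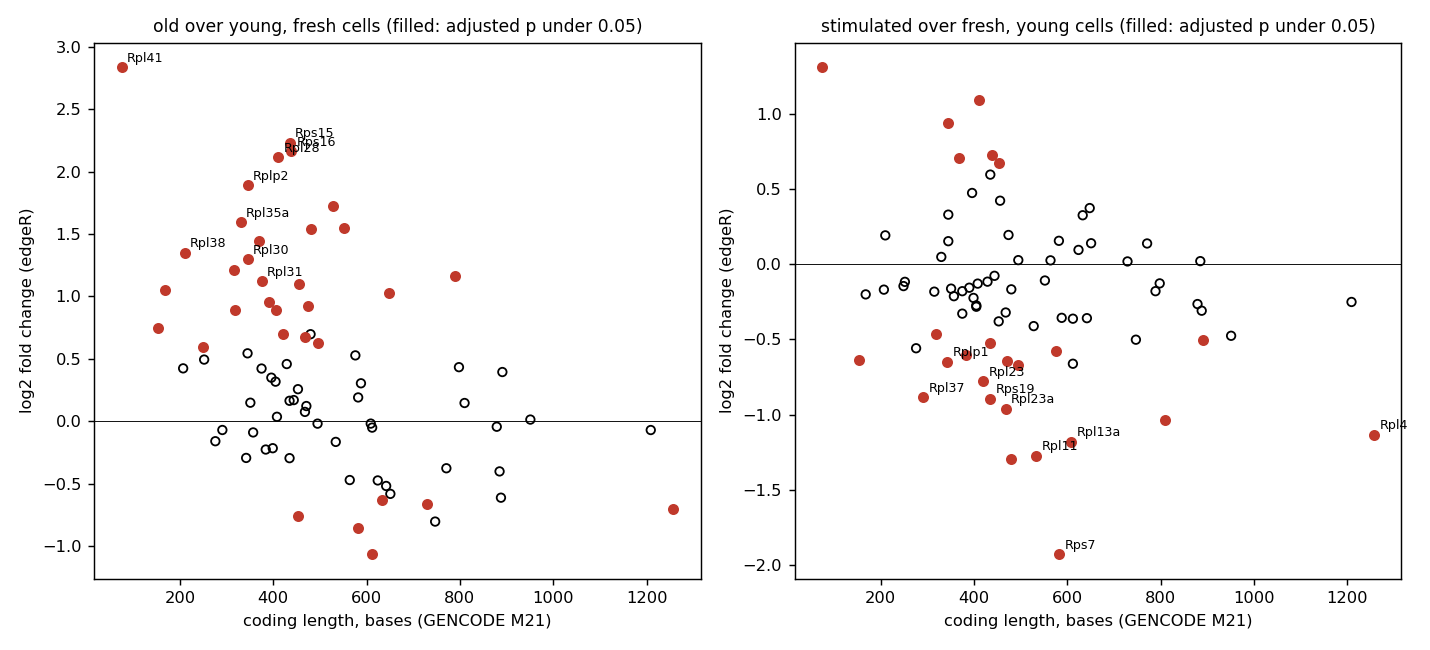
log2 fold change (edgeR) of each of the 76 members against its coding length in bases (GENCODE M21), in old over young fresh cells (left) and in stimulated over fresh young cells (right). Filled points passed an adjusted p under 0.05, and the names are those of the 9 with the smallest p. In the left panel the points fall with length (r = -0.45), with Rpl41 at 75 bases highest.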

How the data were processed

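The kit was Lexogen's QuantSeq 3′ FWD. The authors deposited unnormalised counts of reads for each symbol. The submitters' processing notes name HISAT2 2.2.1, HTSeq 0.9.1, DESeq2 1.34.0 and build mm10. Annotation, strand setting and the handling of reads with several matches are not given in the sources used here. CPM were counts over the library total.

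Counts were tested with edgeR 4.0.16 (R 4.3.3; TMM scaling, filterByExpr with a minimum count of 10 and total of 15, quasi-likelihood test, Benjamini-Hochberg adjustment over all genes tested, called at 0.05). Age, fresh KO and genotype by age comparisons used the 8 fresh libraries, stimulation and its interaction the 8 young ones, and KO in stimulated cells the 4 stimulated ones. The fit of the 8 young libraries took both states to have the same spread for a gene. Its common dispersion, edgeR's measure of that spread, was 0.436, against 0.0330 in the stimulated and 1.07 in the fresh fit. Its p-values rest on that assumption. The code was tested on simulated data. Each fold change of an age or state comparison is the mean of the KO and WT effects. A value after ± is the size of the log2 change over the square root of edgeR's F statistic, an approximate SE. Alternatives were RLE scaling, scaling without the members, no filter, DESeq2 1.42.0, all 12 libraries in 1 fit, limma 3.58.1 voom, a replicate block, each genotype alone and each library left out.

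Members, lists and tests were chosen with earlier results of these data known. Named were the 5 highest and lowest members by mean CPM, up to 8 calls per direction by fold or else the 5 smallest p-values, the 3 smallest p-values against the median's sign, members of fixed role, and up to 4 genes per other list by p. Further called members were named after their values were seen, and some called members are not reported by name. Mitochondrially encoded genes were taken by the symbols used in the files (13 genes). Library totals set the precision.

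Replicate numbers were shared between states and ages of a genotype. Positions and lengths came from GENCODE M21, and start regions from RefSeq (GRCm38.p6).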

Additional observations from a re-analysis of the deposited data

How the results depend on the processing

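After stimulation, DESeq2 called 40 members (14.0% of all genes), the WT effect alone 13 (0.936%) and the KO effect alone 6 (0.649%), and leaving out each library in turn gave 6 to 31 (0.443% to 15.9%), against 25 (4.12%). A fit without 1 library of a group assumes that the lone library varies like the others. In old cells the WT effect alone gave 18 calls (0.805%), the KO effect alone 19 (0.871%) and left-out libraries 30 to 37 (2.46% to 4.61%), against 33 (2.72%). For KO in young fresh cells, no filter (0.0753%) and DESeq2 (0.798%) each gave 1 call (Rpl37a). In stimulated cells, no filter gave 2 (Rpl28 and Rpl35a; 2.2%), limma voom 7 (1.97%) and left-out libraries 0 to 5 (0.217% to 2.66%). In old cells, no filter gave 2 (Rpl10 and Rps14; 0.135%), DESeq2 6 (0.609%) and left-out libraries 0 to 7 (0.0600% to 0.352%), and Rpl6 (log2 change 0.26) ranged from -0.032 without old KO replicate 3 to 0.48 without old KO replicate 4. For genotype by stimulation DESeq2 gave 4 (2.54%). With a replicate block 29 members were called after stimulation (5.69% of all genes) and 33 in old cells (4.10%). In each interaction 0 members were called (0% of all genes for stimulation and 0.0655% for age). Deviations of same-numbered libraries correlated at -0.00482 to 0.00750. Replicates of the fresh groups correlated at only 0.645 to 0.720 across 10157 genes, so these values cannot show whether the numbers pair libraries. Outside mitochondrially encoded genes the mean share was 14.9% in both stimulated groups, 16.9% in young fresh KO and 18.3% in young fresh WT. Without Rpl23 it was 13.8% and 14.0% in stimulated KO and WT, 16.2% in old KO, and 15.4% and 16.5% in young fresh KO and WT. With 3 ribosomal protein genes outside the symbol rule added it was 14.7% in stimulated WT. No called member changed sign under RLE scaling or scaling without the members. The causes were not tested.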
